A study of Danio rerio with 2 samples.

Results

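The mitochondrial carrier family slc25 was followed in zebrafish (Danio rerio) liver on a high-fat diet, in wild-type fish (WT) and in fish labelled ambp ko. Members were all rows whose deposited symbol or Ensembl name begins with slc25a and a number, other than slc25a20 and slc25a38, which gave 61 of the 25939 genes in the table. The rule used names only, and it was set with earlier results of these data known. Poly(A) RNA was sequenced with 1 library per genotype, both from livers of fish on the same diet. The knockout allele and the number, sex and age of the fish behind each library are not given in the sources used here. Without replicates each difference describes these 2 libraries only, and no p-value is given. Intervals are 95% intervals that cover counting error only.

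Carriers of this family are small proteins that mostly sit in the inner mitochondrial membrane, which is otherwise closed to charged metabolites. Each moves a set of substrates, often by exchanging one for another, and so ties the matrix to the cytosol: ADP against ATP, phosphate, citrate and other acids of the citric acid cycle, amino acids, and cofactors such as coenzyme A and NAD. In liver they feed oxidative phosphorylation, and they pass citrate out for lipid synthesis and reducing equivalents in by shuttles. The substrates given here were mostly worked out for the mammalian proteins.

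Estimated reads totalled 15659846 in the wild-type and 18357830 in the knockout library. The targeted gene, ambp, had 50280 wild-type and 3085 knockout reads, a knockout level of 4.39% of the wild-type level in CPM, counts scaled to a common library size. Markers of hepatocytes dominated both libraries, with 186434 and 161544 CPM summed over 8 genes, and all 8 lay between the 2-fold lines. Exocrine pancreas markers were higher in the knockout, at least 2-fold for 10 of 10 measured, with sums of 32.1 and 357.5 CPM; the prss1 copy ENSDARG00000042993 had 61 and 946 reads, while the copy ENSDARG00000038891 was at 0 in both. Endocrine pancreas markers, at least 2-fold higher for 3 of 3, summed to 0.209 and 7.68 CPM, with ins at 1 and 65 reads, gcga at 2 and 64 and sst2 at 0 and 25. Each reached 1 CPM, the level for being measured, in the knockout only, so its passing 2-fold was close to fixed by that filter. Among the higher markers of the other lists, a copy of cpa1, csf1ra, lyz, a copy of epx and acta2 also reached it in the knockout only. Neutrophil markers summed to 34.2 and 80.1 CPM, with 2 of 5 measured at least 2-fold higher, and macrophage markers to 132.4 and 162.3 CPM, with 2 of 4. Of the biliary, endothelial and stellate lists, 1 of 5, 0 of 3 and 1 of 4 measured genes were at least 2-fold higher and 0 lower. Erythroid markers summed to 382.2 and 207.9 CPM, most of it hbaa1 at 351.3 and 186.8 CPM, and 0 of 5 measured genes passed 2-fold. The part of these other cells in the carrier values was not tested. In bulk tissue, fewer cells of a type and less RNA per cell cannot be told apart.

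Of the 61 members, 38 reached 1 CPM in at least one library and are called measured; 32 did so in both, 4 only in the knockout and 2 only in wild type. CPM was computed with library sizes scaled by TMM (trimmed mean of M values), which sets the bulk of genes to about equal levels. A log2 ratio is that of knockout over wild type after adding 1 CPM to each, and a gene was called when it passed 2-fold on that scale. By this rule 5 measured carriers were higher in the knockout library and 5 lower. Among all 11634 genes measured the corresponding shares were 5.4% higher and 6.4% lower, 11.8% in either direction, against 26.3% of the measured carriers. With library totals in place of TMM, which moved the median of all genes to 0.22, the split was 7 higher and 1 lower, and of the 5 lower calls slc25a1a alone remained. On the deposited FPKM with 1 FPKM added, 6 carriers were higher and 0 lower. The shares of all genes called are given for the TMM rule only, so these other counts have no background beside them. Of the 10 called carriers, slc25a22a reached 1 CPM in the knockout only and slc25a1a in wild type only. The measured carriers had a median log2 ratio of -0.14 beside -0.0026 for all genes, while their mean was 0.018, so the sign depended on the summary.

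**Figure D1:**
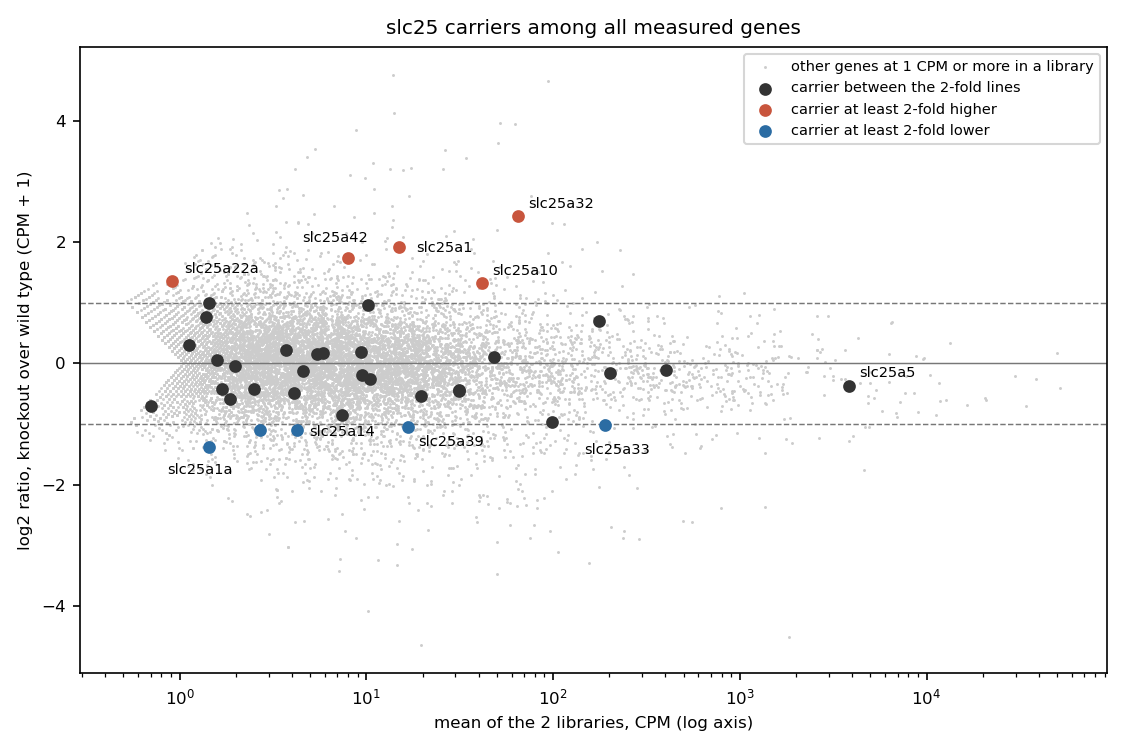
Log2 ratio of knockout over wild type (CPM + 1) against the mean level of the 2 libraries in CPM on a log axis. Grey points are other measured genes, coloured points are the 38 measured carriers, dashed lines mark 2-fold, and slc25a32 stands furthest up among the carriers at 2.43.

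The family's reads belonged mostly to one gene. The ADP/ATP carrier slc25a5 (ENSDARG00000092553), which exports ATP made by oxidative phosphorylation in exchange for cytosolic ADP, had 62136 of the 83230 family reads in wild type and 67352 of 95868 in the knockout. That was 74.7% and 70.3% of the family. Per length, in the deposited FPKM, its level was 2972 in wild type against 2748 in the knockout, and slc25a48 followed at 254 and 282. Its CPM level was 4332 (4298 to 4366) in wild type and 3360 (3335 to 3386) in the knockout, a log2 ratio of -0.37 that was -0.11 by library totals. The other ADP/ATP carriers contributed almost nothing: slc25a4 (ENSDARG00000027355) and slc25a6 (ENSDARG00000005853) were listed at 0 in both libraries. The gene si:dkey-251i10.1 (ENSDARG00000042521), which carries the deposited symbol SLC25A5, had 11 and 40 reads. These genes are close relatives, and the sources used here do not say how reads shared between copies were counted, so their split is uncertain.

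Below slc25a5 the order of levels in FPKM was nearly the same in both libraries at the top and differed further down. In wild type it ran slc25a48, slc25a33 (136), slc25a3 (85.2), slc25a25 (69.1), slc25a11 (28.5) and slc25a36 (27.1). In the knockout slc25a3 (165) stood above slc25a33 (80.4), and the copy of slc25a32 with most reads moved into the upper part of the order, from 4.91 to 32.9 FPKM. The 5 highest genes held 95.4% of the family's summed FPKM in wild type and 93.9% in the knockout. As a share of all reads the family took 0.531% and 0.522%. Without slc25a5 the remaining 60 genes took 0.135% in wild type and 0.155% in the knockout, while their summed CPM by TMM was 1471 and 1423, so the direction of that sum turned with the scaling.

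**Figure D2:**
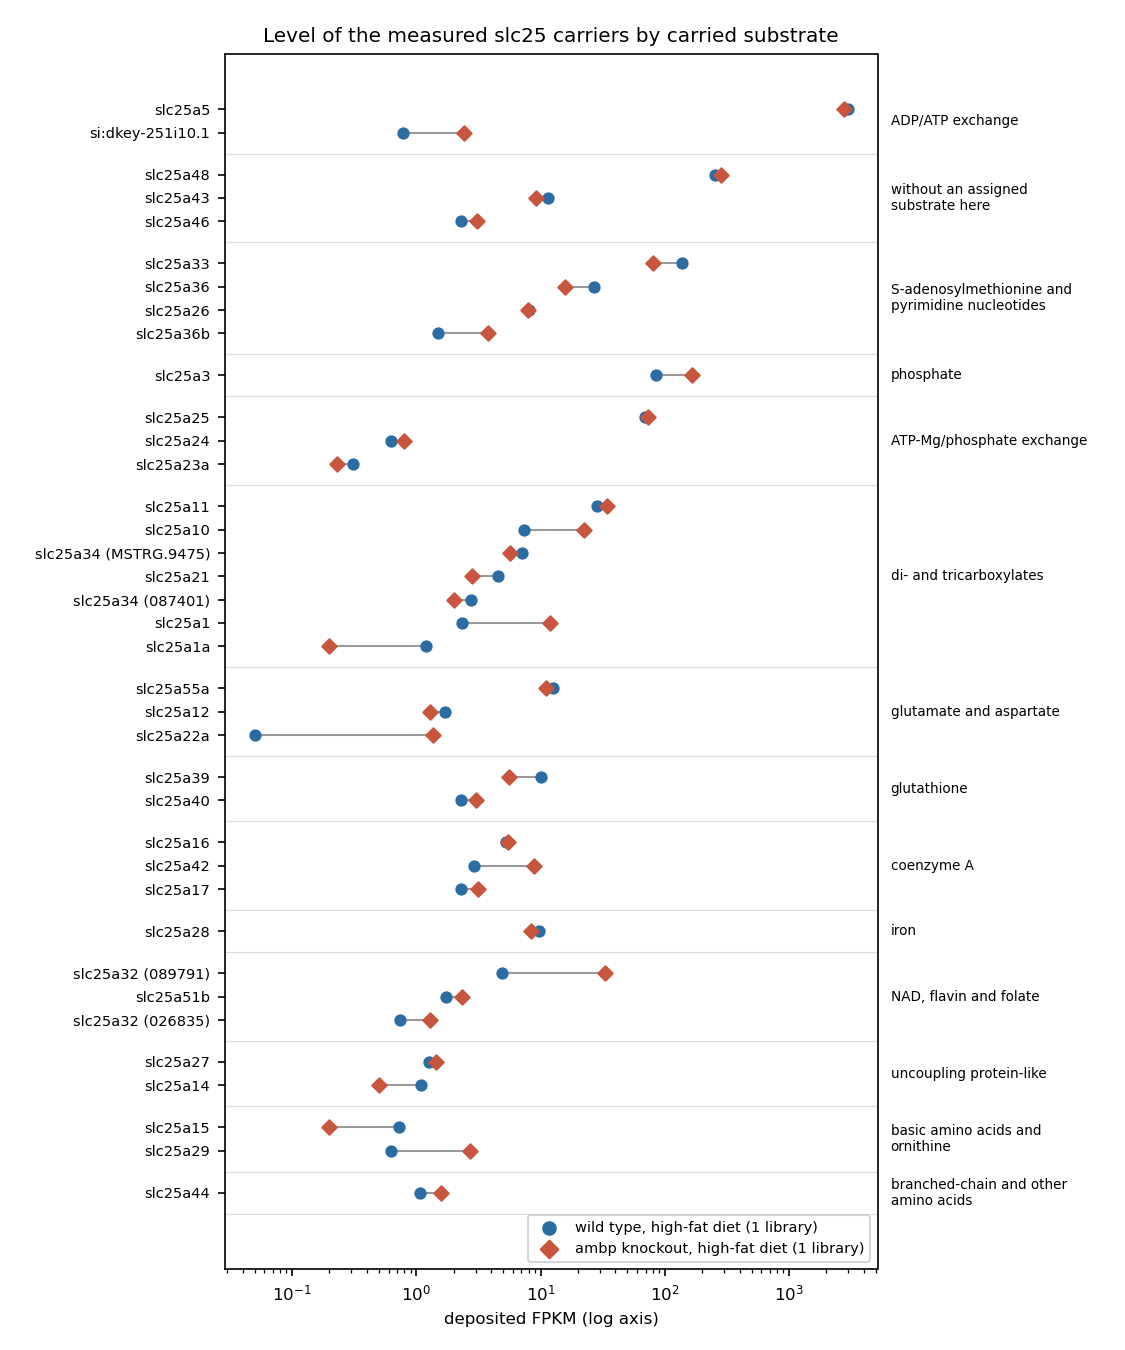
Deposited FPKM on a log axis for 37 of the 38 measured carriers, grouped by carried substrate, in wild type (circle) and knockout (diamond). slc25a5 stands at 2972 and 2748, and the widest gaps above 1 FPKM in both libraries are those of slc25a32, slc25a1, slc25a10 and slc25a42. Names shared by more than one gene carry the last digits of their identifier.

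Phosphate and ATP-Mg/phosphate carriers were among the abundant members. The phosphate carrier slc25a3 (ENSDARG00000025566) brings in the phosphate used to make ATP, and also carries copper. It had 1926 wild-type and 4378 knockout reads, which is 134.3 CPM (128.4 to 140.4) against 218.4 CPM (212.0 to 225.0). This was 1.63-fold higher (1.54 to 1.72), short of the 2-fold rule, with a log2 ratio of 0.70 that was 0.95 by library totals. The calcium-regulated ATP-Mg/phosphate carrier slc25a25 (ENSDARG00000010572, slc25a25a in the deposited table), which changes the size of the matrix adenine nucleotide pool, had 3072 and 3840 reads. Its log2 ratio was -0.16 by TMM and 0.09 by library totals, so no direction is given. Its relatives slc25a24 and slc25a23a were rare, with 22 and 33 reads and 30 and 26 reads. The 3 measured ATP-Mg/phosphate carriers all lay between the 2-fold lines.

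Carriers of di- and tricarboxylic acids differed in both directions. The citrate carrier exports citrate, the source of cytosolic acetyl-CoA for fatty acid and sterol synthesis, in exchange for malate. The slc25a1 copy ENSDARG00000076381, slc25a1b in the deposited table, had 82 wild-type and 487 knockout reads, or 5.72 CPM (4.55 to 7.10) against 24.3 CPM (22.2 to 26.6). The knockout level was 4.25-fold higher (3.36 to 5.44). Its paralog slc25a1a (ENSDARG00000057110) went the other way, from 36 reads to 7, a level 7.19-fold lower (3.15 to 19.1). The slc25a1a log2 ratio of -1.38 was -1.26 by library totals and -0.87 by FPKM, and the call was lost by FPKM. A further copy, ENSDARG00000080000, was listed at 0 in both. The dicarboxylate carrier slc25a10 (ENSDARG00000025074), which exchanges malate and succinate for phosphate, had 333 wild-type and 1197 knockout reads. Its level of 23.2 CPM (20.8 to 25.9) against 59.7 CPM (56.4 to 63.2) was 2.57-fold higher (2.28 to 2.91).

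The remaining members of this group were not called. The oxoglutarate carrier slc25a11, a part of the malate-aspartate shuttle, had 667 and 1006 reads and a log2 ratio of 0.11. The carrier of 2-oxoadipate, an intermediate of lysine breakdown, slc25a21, had 140 and 100 reads and a ratio of -0.85. The gene slc25a34 (ENSDARG00000087401) had 35 and 26 reads, and an assembled locus with the same symbol, MSTRG.9475, had 43 and 40. Of the 7 measured genes 2 were called higher and 1 lower, with a median of -0.42, whereas their summed level was 93.1 CPM in wild type against 142.8 CPM in the knockout. The sum and the median thus pointed in opposite directions, the sum being set by slc25a10 and slc25a1. The median was the value of the assembled locus MSTRG.9475 alone. With both slc25a34 rows set aside the middle gene would be slc25a11, at 0.11, so the sign of the median rests on those rows. Both slc25a34 rows had few reads, and whether they are one gene was not tested.

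Cofactor carriers held the carrier with the largest log2 ratio. The slc25a32 copy ENSDARG00000089791 had 282 wild-type and 2212 knockout reads. Mammalian SLC25A32 is known for bringing folate, and the flavin cofactor FAD, into mitochondria. The level was 19.7 CPM (17.4 to 22.1) in wild type against 110.4 CPM (105.8 to 115.1) in the knockout, 5.61-fold higher (4.96 to 6.38), and the deposited FPKM differed 6.70-fold. The second slc25a32 copy, ENSDARG00000026835, had 13 and 27 reads. The NAD carrier slc25a51b had 78 and 125 reads and a log2 ratio of 0.17. Among 3 measured coenzyme A carriers 1 was called, slc25a42 (ENSDARG00000099368), which exchanges coenzyme A for adenine nucleotides. It had 45 wild-type and 256 knockout reads, or 3.14 CPM (2.29 to 4.20) against 12.8 CPM (11.3 to 14.4), 4.07-fold higher (2.96 to 5.72). By deposited FPKM, which is not scaled by TMM, slc25a42 was 3.06-fold higher, and the gene length implied by its count and FPKM was 1.58 times as long in the knockout column. The other 2 were slc25a16, with 146 and 176 reads, and slc25a17, a peroxisomal carrier of coenzyme A and other nucleotides, with 124 and 200.

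Of the carriers of pyrimidine nucleotides, slc25a33 alone was called, as lower in the knockout. The nucleotide carrier slc25a33 (ENSDARG00000039931), which supplies mitochondrial DNA and RNA synthesis, had 3636 wild-type and 2512 knockout reads. Its 253.5 CPM (245.3 to 261.9) against 125.3 CPM (120.5 to 130.3) was 2.02-fold lower (1.92 to 2.13), at the edge of the rule: the log2 ratio of -1.01 was -0.76 by library totals and by FPKM, where the call was lost. The related slc25a36 (ENSDARG00000038731) had 1875 and 1339 reads and was 1.96-fold lower (1.82 to 2.101), just short of it. Its paralog slc25a36b (ENSDARG00000015915) had 94 and 277 reads and was 2.11-fold higher (1.66 to 2.69), with a log2 ratio of 0.97 that was 1.20 by library totals, where it was called. The carrier of S-adenosylmethionine, the methyl donor, slc25a26, had 165 and 191 reads and a log2 ratio of -0.25. Together these 4 genes summed to 402.3 CPM in wild type against 215.5 CPM in the knockout, and to 173 and 108 FPKM.

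Glutathione and iron carriers bear on redox state and heme. Mitochondria make no glutathione of their own and take it up through slc25a39 and slc25a40. The gene slc25a39 (ENSDARG00000007449) had 328 wild-type and 211 knockout reads, or 22.9 CPM (20.5 to 25.5) against 10.5 CPM (9.15 to 12.05), 2.17-fold lower (1.82 to 2.60). Its log2 ratio of -1.05 was -0.81 by library totals and -0.76 by FPKM, and the call was lost in both. Its relative slc25a40 had 69 and 87 reads and a log2 ratio of -0.12, which was 0.09 by library totals. Of the mitoferrins, which bring in iron for heme and iron-sulfur clusters, slc25a28 had 522 and 530 reads and a log2 ratio of -0.45. The mitoferrin of red cells, slc25a37, had 3 reads in each library, at the floor of 3 reads, beside the summed erythroid markers of 382.2 CPM in wild type.

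Amino acid carriers were mostly rare. The gene slc25a55a (ENSDARG00000020893), which has the deposited symbol of the glutamate carrier SLC25A22, was the most abundant, with 520 and 534 reads and a log2 ratio of -0.43. The aspartate-glutamate carrier slc25a12, of the malate-aspartate shuttle, had 71 and 65 reads. The other aspartate-glutamate carrier, slc25a13 (ENSDARG00000099353), which is the main form in mammalian liver, was listed at 0 in both libraries. A count of 0 allows levels up to 0.209 CPM in wild type against 0.150 CPM in the knockout, taking 3 reads as the limit. The glutamate carrier slc25a22a (ENSDARG00000020718) passed the rule with 1 wild-type and 35 knockout reads, a fold of 25.05 with a counting interval from 4.21 to 1017.

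Ornithine and basic amino acid carriers had few reads. The ornithine carrier slc25a15, which serves the urea cycle, had 16 and 6 reads for ENSDARG00000063539 and 4 and 8 for ENSDARG00000062271. The urea cycle enzymes cps1 and otc, and nags, the gene for the enzyme that makes the activator of cps1, were listed at 0 in both libraries. The basic amino acid carrier slc25a29 had 9 and 45 reads for ENSDARG00000098849, or 0.627 and 2.25 CPM, 3.58-fold higher (1.73 to 8.32). Its log2 ratio of 0.996 fell just under the rule, and it was called higher by library totals (1.13), without the 20 most counted genes (1.11), by FPKM (1.19) and with a pseudocount of 0.1 CPM. This copy reached 1 CPM in the knockout only, so the filter favoured that direction. The other copy, ENSDARG00000057352, had 9 and 11. The branched-chain amino acid carrier slc25a44 had 48 and 82 reads for its measured copy, ENSDARG00000035905.

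Among carriers related to uncoupling proteins, slc25a14 (ENSDARG00000026680) had 88 wild-type and 47 knockout reads, 2.62-fold lower (1.82 to 3.81), and slc25a27 had 29 and 39. The slc25a14 log2 ratio of -1.09 was -0.89 by library totals and -0.49 by FPKM, and the call was lost in both. Genes with no substrate assigned in the grouping used here included slc25a48 (ENSDARG00000021250), linked in mammals to choline import. It was second only to slc25a5 in the family, with 6032 and 7807 reads and a log2 ratio of -0.11 by TMM that was 0.14 by library totals. In the same group slc25a43 had 337 and 318 reads (-0.54), and slc25a46, a protein of the outer membrane tied to mitochondrial shape, had 73 and 116 (0.16).

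Several carriers exist as paralogs, and the balance between copies of one carrier does not depend on library scaling. Of 18 carrier numbers with more than 1 gene, 5 had at least 2 measured genes, 12 had 1 and slc25a47 had none. For slc25a1, the copy slc25a1a held 30.5% (exact binomial interval 22.4 to 39.7) of the reads in wild type and 1.42% (0.572 to 2.9) in the knockout. The copy slc25a36b held 4.77% (3.87 to 5.81) of slc25a36 reads in wild type and 17.1% (15.3 to 19.1) in the knockout. For slc25a32 the rarer copy held 4.41% (2.37 to 7.42) and 1.21% (0.796 to 1.75). For slc25a5, si:dkey-251i10.1 held 0.0177% (0.00884 to 0.0317) and 0.0594% (0.0424 to 0.0808). In each of these cases the counting intervals of the 2 libraries did not overlap, but they leave out all variation between fish and any error in how reads shared between copies were counted. The si:dkey-251i10.1 share rests on 11 and 40 reads beside the far more abundant slc25a5, so it is uncertain. Of these copies, slc25a1a reached 1 CPM in wild type only, and si:dkey-251i10.1 and the rarer slc25a32 copy in the knockout only. For slc25a1a and si:dkey-251i10.1 the share was higher in the library that let the copy in, so the filter favoured that direction. How often the copies of other genes do the same is not given, so no shift by genotype is read from this. Within slc25a34 the assembled locus held 55.1% (43.4 to 66.4) and 60.6% (47.8 to 72.4), which did overlap.

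**Figure D3:**
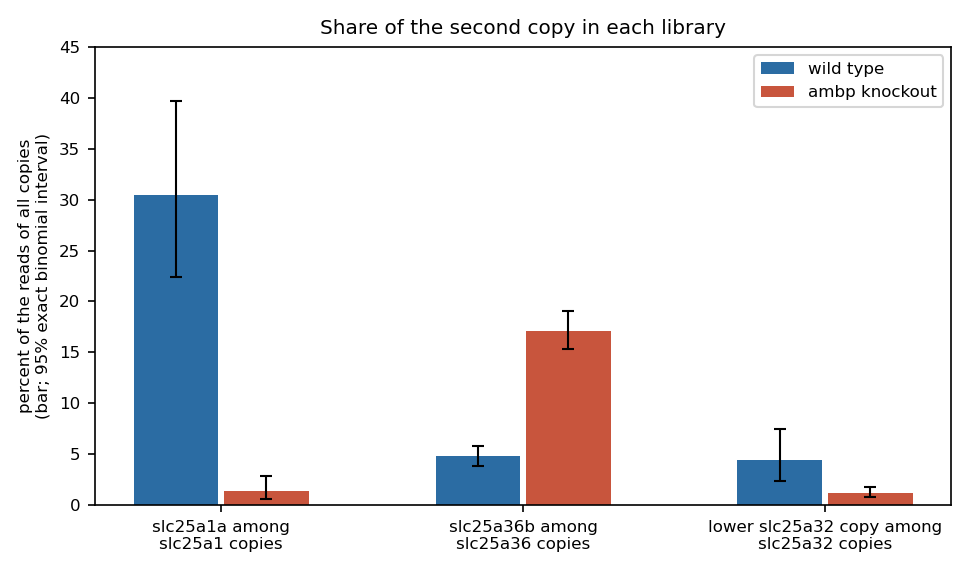
Percent of all reads of a carrier number that came from its second copy in wild type and knockout, with 95% exact binomial intervals for counting error. The slc25a1a share is 30.5% and 1.42%, the slc25a36b share 4.77% and 17.1%, and the share of the rarer slc25a32 copy 4.41% and 1.21%.

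The members that were not measured numbered 23, of which 10 were at 0 in both libraries and 13 had between 1 and 13 reads in the library where they were higher. Besides those already named, the genes at 0 were slc25a35, slc25a45, slc25a22b, the slc25a23 copy ENSDARG00000024708, the slc25a10 copy ENSDARG00000097890 and the assembled locus MSTRG.9474. Both slc25a47 genes, relatives of a carrier that is enriched in mammalian liver, were in the second set, with 8 and 12 reads for ENSDARG00000059923 and 1 and 5 for slc25a47b. Besides slc25a37 and the slc25a15 and slc25a29 copies given above, the rest of that set were slc25a18, slc25a24l, slc25a51a, slc25a55b and second copies of slc25a3, slc25a17, slc25a25 and slc25a44.

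Genes that act beside the carriers were followed in 6 lists. Among all 11634 genes measured, 5.4% were at least 2-fold higher and 6.4% lower, 11.8% in either direction. The lists are short, and no difference from these shares is read from their counts. Carriers are made in the cytosol and inserted by the TOM and TIM22 complexes, and of 18 measured import genes 0 were at least 2-fold higher and 1 lower, the channel gene timm22, with 38 and 16 reads. It reached 1 CPM in wild type only, and its log2 ratio of -1.02 was at the edge of the rule. The import genes had a median log2 ratio of -0.36, and -0.11 by library totals, where the median of all genes was 0.22. The receptor gene tomm70, with 284 and 598 reads, lay furthest up at 0.57, and the most abundant, tomm20 (ENSDARG00000103566), had 1284 and 1571 reads. Of 19 measured mitochondrial transporters outside the family, 2 were at least 2-fold higher and 0 lower, with a median of 0.26. These were the serine transporter sfxn1, with 9 and 50 reads, and a copy of mpc2 (ENSDARG00000037679), a subunit of the pyruvate carrier, with 194 and 907. Of the 2, sfxn1 reached 1 CPM in the knockout only. The more abundant mpc2 copy, ENSDARG00000024478, had 3131 and 8674 reads and a log2 ratio of 0.98, while its partner subunit mpc1 had -0.01. The gene with most reads in wild type was that of the outer membrane channel vdac2, with 6083 and 8059 reads.

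Enzymes on either side of the carriers differed gene by gene. Of all genes measured 11.8% were called in either direction, and the counts of these short lists are given as description only. Of 13 measured genes of citrate export and the malate-aspartate and glycerol phosphate shuttles, 1 was called, a copy of acly (ENSDARG00000099079), which splits exported citrate into acetyl-CoA. It had 461 wild-type and 3290 knockout reads, 5.11-fold higher (4.63 to 5.64). The other acly copy, ENSDARG00000055652, had 28 and 25 reads and a log2 ratio of -0.39. The list's most abundant gene, mdh1, had 27395 and 30320 reads and a log2 ratio of -0.34. Among 10 measured matrix enzymes of ornithine and nitrogen metabolism, oat, with 100 and 427 reads, and a copy of gls2 (ENSDARG00000069095), with 6 and 65, were called higher. That gls2 copy reached 1 CPM in the knockout only. The more abundant gls2 copy, ENSDARG00000002917, had 379 and 549 reads and a log2 ratio of 0.05. In the same list bcat2, of branched-chain amino acid breakdown, was called lower with 404 and 270 reads. Its log2 ratio of -1.01 was at the edge of the rule, and calls in these lists are given for TMM only. The most abundant gene of the list was glud1b, with 21793 and 27363 reads. Of 14 measured iron-sulfur cluster genes 2 were called lower, fdx1, with 4712 and 2470 reads, and a copy of iscu (ENSDARG00000026582), with 295 and 163, while the median was 0.058. The other iscu copy, ENSDARG00000035596, had 335 and 501 reads and a log2 ratio of 0.09.

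The uncoupling proteins belong to the same protein family but carry other names. The gene ucp1 (ENSDARG00000023151, ucp2 in the deposited table) had 126284 wild-type and 114199 knockout reads, more than slc25a5 in both. Per length it stood at 3212 FPKM in wild type and 2477 in the knockout, beside 2972 and 2748 for slc25a5, so the order of these 2 genes differed between the libraries. Its log2 ratio was -0.63 and that of ucp2 (ENSDARG00000043154), with 1004 and 755 reads, -0.88, both inside the 2-fold lines. The third, ucp3, had 4 and 2 reads.

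**Figure D4:**
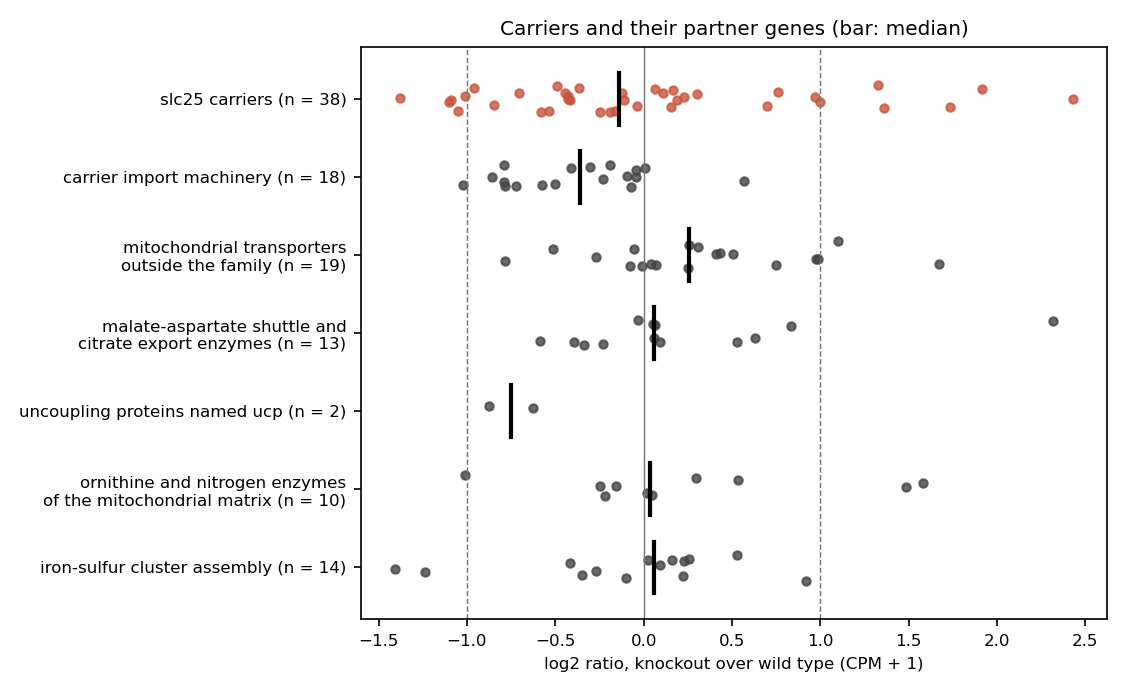
Log2 ratio of knockout over wild type (CPM + 1) for each measured gene of the carrier family and of the 6 partner lists, 1 point per gene, with the median as a bar and 2-fold as dashed lines. The carriers have a median of -0.14 and the import genes -0.36, and the points furthest right are slc25a32 at 2.43 and acly at 2.32.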

How the data were processed

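Per the labels' protocols, poly(A) RNA from TRIzol extracts went into NEBNext Ultra RNA libraries. Per the submitters' processing notes, HISAT2, featureCounts and GRCz11 were used; the sources used here do not say whether counting used strand. The authors deposited estimated counts per gene, of which 5.45% (wild type) and 6.01% (knockout) were not whole, and FPKM values. Counts were rounded. All 4 value columns were used and 0 were left unmatched.

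Sizes were scaled with TMM (factors 0.916 and 1.09; edgeR 4.0.16, R 4.3.3), and DESeq2 1.42.0 gave another scaling. Poisson, conditional binomial and Clopper-Pearson intervals came from SciPy 1.17.1. One read equals 0.0697 (wild type) or 0.0499 CPM (knockout). Alternatives were other scalings, pseudocounts, filters, a 1.5-fold rule, a counting interval and FPKM. The functions were tested on simulated data. Names came from an Ensembl name table, which held 57 of the 61 members. Named members were those past 2-fold, the most abundant, the extremes of each substrate group and measured paralogs; named partners were those past 2-fold and the most abundant of each list. Partner names timm18 and mtch1 found no gene. A few more genes were named for contrast after their values were seen. The members and lists were chosen with earlier results of these data known. Protein and promoter sequences were not used here. One named member is not reported here.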

Additional observations from a re-analysis of the deposited data

How the results depend on the processing

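List medians here are less the median of all genes, which was 0.22 with library totals, 0.19 without the 20 most counted genes and 0.16 with FPKM. On that basis the carriers' median was -0.14 and stayed below 0 in every setting tried, from -0.060 with FPKM to -0.16 with one value per carrier number, but the mean was 0.021. Carriers called higher numbered 8 with a pseudocount of 0.1 CPM, 9 at 1.5-fold, and 4 to 7 in the other settings; slc25a32, slc25a1, slc25a10 and slc25a42 were called in all. Carriers called lower numbered 1 with library totals, 1 without the 20 most counted genes, 0 with a pseudocount of 5 CPM, 2 with the 10 CPM filter, 0 with FPKM and 8 at 1.5-fold. The 10 CPM filter and 1.5-fold rule count other genes by construction. Library totals and sizes without the 20 most counted genes move ratios up, and a changed pseudocount shrinks or widens them, also by construction. With FPKM the log2 ratios of the abundant slc25a5 (-0.11) and slc25a33 (-0.76) were, after rounding, those by library totals. That of the rare slc25a14 was -0.49 beside -0.89. The cause of the FPKM counts was not tested. Shares of all genes called are not given for these settings, so the counts have no background beside them. Of the 5 lower carriers slc25a1a alone kept its call with library totals, and all 5 lay from -0.49 to -1.26 across FPKM and library totals. Without the median of all genes taken off, 16 of the 38 measured carriers were above 0 and 17 below 0 in all 5 scalings. The other 5 changed sign: slc25a25, slc25a40, slc25a48, slc25a27 and slc25a16. Less that median, slc25a25, slc25a48, slc25a27 and slc25a16 were below 0 in all 5 scalings, so their changes of sign followed the shift of all genes. On that basis slc25a40 was above 0 with FPKM only, and slc25a24 went from 0.065 with TMM to -0.0093 with FPKM. The counting interval removed no call, but it asked only that the interval of a gene already past 2-fold exclude equal levels. It covers counting error only and so says nothing of variation between fish. Below about 50 reads, as for slc25a1a and slc25a22a, depth limits the ratios. No paired analysis was possible because each genotype has 1 library.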

Other observations

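In the RefSeq order of GRCz12tu, 3 pairs of carrier genes are direct protein-coding neighbours. They are slc25a5 with slc25a43, slc25a29 with slc25a47a and slc25a47b with slc25a29l. In the first pair slc25a5 had 62136 and 67352 reads and slc25a43 had 337 and 318, log2 ratios of -0.37 and -0.54. The slc25a29 and slc25a47 genes of the other pairs had at most 45 reads in either library.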
